A study of Mus musculus with 18 samples.

Results

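The chromosomal contacts of the mouse Ifng gene were compared between Th2 cells and naive CD4+ T cells. The members are the 4 arrays titled for Ifng contacts in these cells, 2 of Th2 cells and 2 of naive cells, out of 18 arrays in the whole series. The assay was 4C (circular chromosome conformation capture), with a tiling array as its readout. The other 14 arrays hold Ifng contacts of 3 further groups and Il4 contacts of 4 groups, and serve here only to place the difference between Th2 and naive cells.

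Interferon gamma, the product of Ifng, is the cytokine that defines Th1 cells. The gene lies near the telomeric end of mouse chromosome 10. Naive CD4+ T cells keep several cytokine genes poised. When they become Th2 cells under interleukin 4 they express the Il4, Il5 and Il13 cluster on chromosome 11 and silence Ifng. In 4C, chromatin is crosslinked, cut and ligated, so that DNA that lay close to 1 gene in the nucleus, the bait, is joined to it and can be amplified from there. A gene contacts its own neighbourhood most often, the rest of its chromosome less often with distance, and other chromosomes least, and regions of similar activity tend to contact one another.

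The Th2 arrays are labelled with Th2 as their treatment and the naive arrays with none, and both cell types are described as primary CD4+ T cells. No mutation, strain, age or sex is given for either group, and the sources used here do not say how the Th2 cells were differentiated, how naive cells were purified or how many mice were used. The deposit describes its arrays as separate biological replicates except for 1 made from a pool, which cannot be told from the labels. Separate animals are not named, so p-values measure the spread between these arrays. Replicates of Th2 and of naive cells hold nearly the same sorted values as deposited. The SDs, SEs and p-values may therefore understate the spread between replicates, which was not tested. The other Ifng groups are Th1 cells, Th1 cells lacking Stat4 (the transcription factor that carries the interleukin 12 signal) and 3T3-L1 cells, an established line of preadipocytes, each with 2 arrays. Parts of the protocol text name adherent cells and baits other than Ifng and Il4, so the bait and the cell type were taken from the titles and source names. The assay reads DNA contacts and no RNA, so the cell types could not be checked against marker genes.

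Each array carried 384942 probes at a median spacing of 5037 bp, 19736 of them on chromosome 10. A probe's value is the log2 ratio of 4C DNA over genomic DNA, centred here on the median of the array's probes off chromosome 10, so 0 is the level of a typical probe on another chromosome. Probes were averaged in 500-kb bins. The bin chr10:117500001-118000000 (mouse build mm8, inferred from the probe positions) was the highest of chromosome 10 in both Th2 arrays and in 7 of the 10 Ifng arrays, and was taken as the bait. In naive replicate 2 the highest bin lay 1 Mb from it. The bait bin itself had 3.86 and 3.60 in Th2 cells, against 3.51 and 2.80 in naive cells. Over the 249 bins of chromosome 10 more than 1 Mb from the bait, the replicates correlated at r = 0.946 in Th2 cells and 0.974 in naive cells. Over 4772 bins of other chromosomes r was 0.641 for Th2 cells and 0.757 for naive cells. Th1 replicate 2 stood apart, because over all probes it correlated more with an Il4 array of Th2 cells (r = 0.347) than with Th1 replicate 1 (r = 0.149). It enters the comparison of Th2 with naive cells only through the shared estimate of the spread. The Th2 arrays and the naive arrays come from 2 different series of array numbers, which therefore cannot be told apart from cell type among these 4 arrays.

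On the mean of the probes, contacts of Ifng were stronger close to the gene in Th2 cells and stronger far along chromosome 10 in naive cells. Of 5021 bins tested with limma over all 5 Ifng groups, 251 passed an adjusted p of 0.05 (5.00%), with 81 higher in Th2 cells (1.61%) and 170 lower (3.39%). Chromosome 10 held 56 of the higher and 91 of the lower bins among its 249. With the array-number series as a block, which is linked across the series only through the Th1 arrays, replicate 2 among them, 96 bins passed (35 higher and 61 lower). Leaving out Th2 replicate 2 left 37 higher bins on chromosome 10, with 92 lower.

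**Figure D1:**
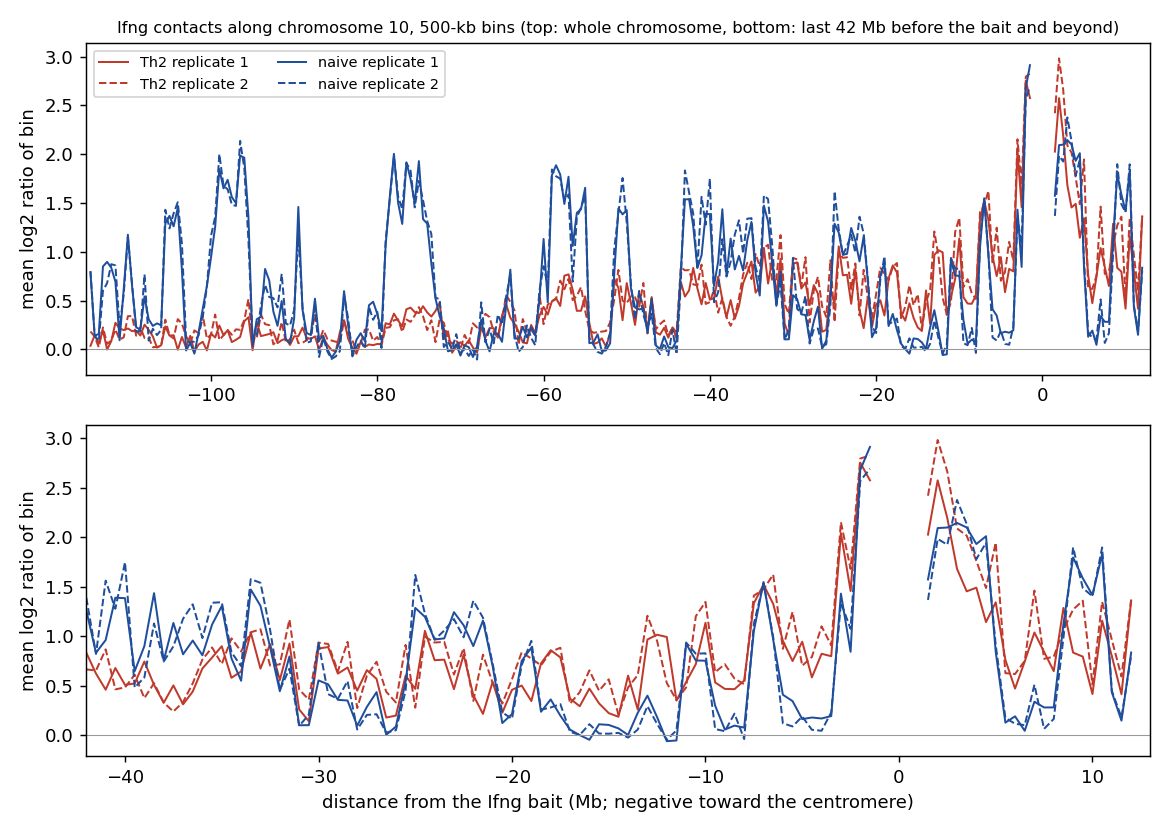
Mean log2 ratio of 4C over genomic DNA in 500-kb bins against the distance from the Ifng bait in Mb, for both Th2 arrays (red) and both naive arrays (blue); bins within 1 Mb of the bait are left out. Beyond 40 Mb the naive arrays form tall peaks above 1 where no Th2 bin exceeds 1, and within 10 Mb the naive troughs fall below 0.2 where no Th2 bin does.

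Bins were grouped by distance from the bait into a near zone (to 10 Mb), a mid zone (to 40 Mb) and a far zone (beyond 40 Mb, all toward the centromere). Near Ifng, the 36 bins averaged 1.19 and 1.39 in the Th2 arrays, against 1.01 and 0.96 in the naive arrays. Both Th2 arrays were above both naive arrays. Th2 cells had a mean of 1.29 ± 0.14 and naive cells one of 0.98 ± 0.03, with the SD over 2 arrays each, and the difference was 0.31. In the exact permutation test, which with 2 arrays against 2 cannot give a two-sided p below 0.333, p was 0.333. Of these bins 25 were called higher and 5 lower, against 1.61% and 3.39% over all bins.

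Among near probes the groups stood furthest apart at the bright end. The 90th percentile of near probes was 4.11 and 4.13 in Th2 cells, against 3.38 and 3.22 in naive cells, whereas the median probe was at 0.285 and 0.595 in Th2 cells and at 0.28 and 0.255 in naive cells. The share of near probes above 1 was 35.1% and 45.1% in Th2 cells, against 37.4% and 37.7% in naive cells. Above 2 it was 32.3% and 34.9% in Th2 cells, against 30.0% and 28.3% in naive cells. The groups did not overlap at the 90th percentile, the median or the share above 2, and they overlapped in the share above 1. Th2 replicate 1 and naive replicate 1 had nearly the same median. A higher 90th percentile in Th2 cells was not particular to the near zone. Among mid probes it was 3.145 and 3.066 in Th2 cells, against 2.61 and 2.705 in naive cells. Among far probes it was lower in Th2 cells, at 0.715 and 0.91, against 2.845 and 2.835 in naive cells. When each bin was given the median of its probes instead of their mean, the near-zone difference was -0.04 and only 8 chromosome 10 bins were called higher, with 65 lower.

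The levels of both cell types were lower away from the bait, but they followed distance differently. From 1 to 2 Mb the Th2 arrays stood at 2.48 and 2.76, against 2.32 and 2.15 in naive cells. From 10 to 20 Mb they stood at 0.61 and 0.72, against 0.36 and 0.35 in naive cells, and 17 of the 24 bins there were called higher and 2 lower. From 30 to 40 Mb the order was turned, with 0.60 and 0.66 in Th2 cells and 0.89 and 0.95 in naive cells. Between these, at 20 to 30 Mb, the groups overlapped, with 0.57 and 0.67 in Th2 cells and 0.65 and 0.69 in naive cells. Past 80 Mb the Th2 arrays were down to 0.12 and 0.16, while the naive arrays still held 0.59 and 0.59, with 38 of 69 bins called lower and 0 higher. The sign of the difference thus turned within the mid zone, which as a whole averaged 0.60 and 0.69 in Th2 cells and 0.61 and 0.64 in naive cells (exact permutation p = 1.0).

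**Figure D2:**
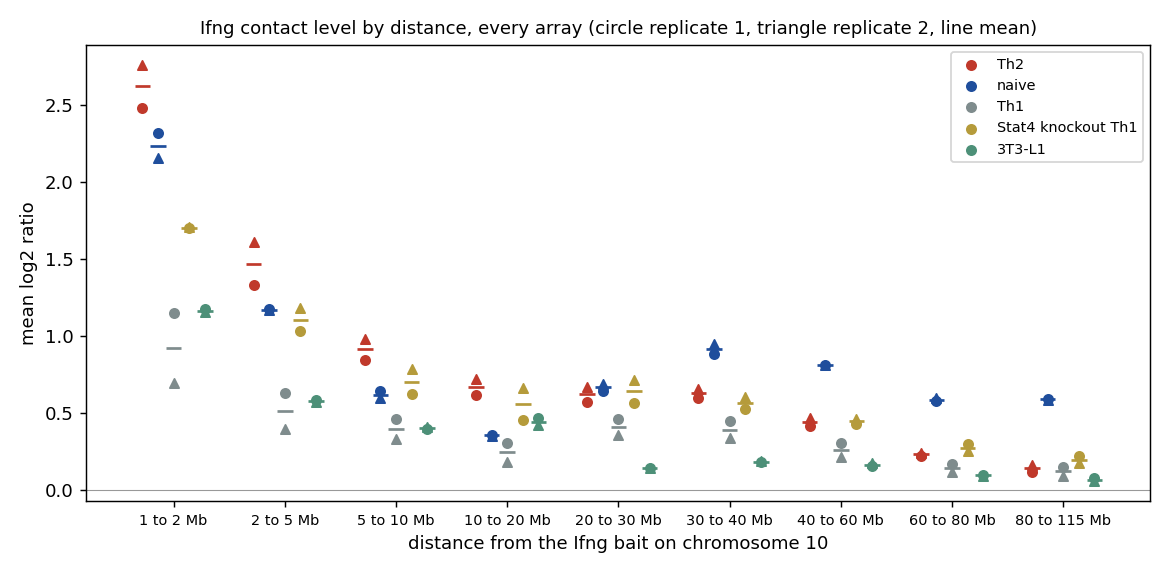
Mean log2 ratio of the chromosome 10 bins by distance from the Ifng bait, one symbol per array (circle replicate 1, triangle replicate 2) and a line at each group's mean, for Th2, naive, Th1, Stat4 knockout Th1 and 3T3-L1 cells. The Th2 mean is the highest of the 5 groups up to 20 Mb and the naive mean the highest from 20 Mb on.

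The far zone held most of the loss. Its 149 bins averaged 0.23 and 0.27 in the Th2 arrays, against 0.65 and 0.65 in the naive arrays, and the groups did not overlap. The difference was -0.40 (exact permutation p = 0.333), with 70 bins called lower and 4 higher. It was -0.41 with the median of the probes, -0.32 after quantile normalization and -0.22 after scaling each array by its spread off chromosome 10. Naive cells had 43 and 46 far bins above 1, and Th2 cells had 0 and 0. The profile was accordingly flatter in Th2 cells, where the SD over far bins was 0.20 and 0.20, against 0.62 and 0.64 in naive cells. At the level of probes, 7.50% and 9.31% of far probes were above 1 in Th2 cells, against 25.4% and 26.3% in naive cells.

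On the means of 500-kb bins, contact was also spread more evenly near the gene in Th2 cells. No near bin was below 0.2 in either Th2 array, while 10 and 13 were in the naive arrays. Single near probes were not more even in Th2 cells. Their 10th to 90th percentiles ran from -0.295 to 4.11 and from -0.24 to 4.13 in the Th2 arrays. In the naive arrays they ran from -0.295 to 3.375 and from -0.325 to 3.215. On the centromeric side of the bait 15 of 18 near bins were called higher and 0 lower, with means of 1.17 and 1.30 in Th2 cells and 0.79 and 0.73 in naive cells. On the telomeric side 10 of 18 were called higher and 5 lower, with means of 1.21 and 1.48 in Th2 cells and 1.22 and 1.19 in naive cells, so the groups overlapped there. As a description, the mean Th2 and naive profiles correlated at r = 0.819 over the 36 near bins, 0.372 over the 64 mid bins and 0.550 over the 149 far bins; neighbouring bins share chromatin and are not independent.

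**Figure D3:**
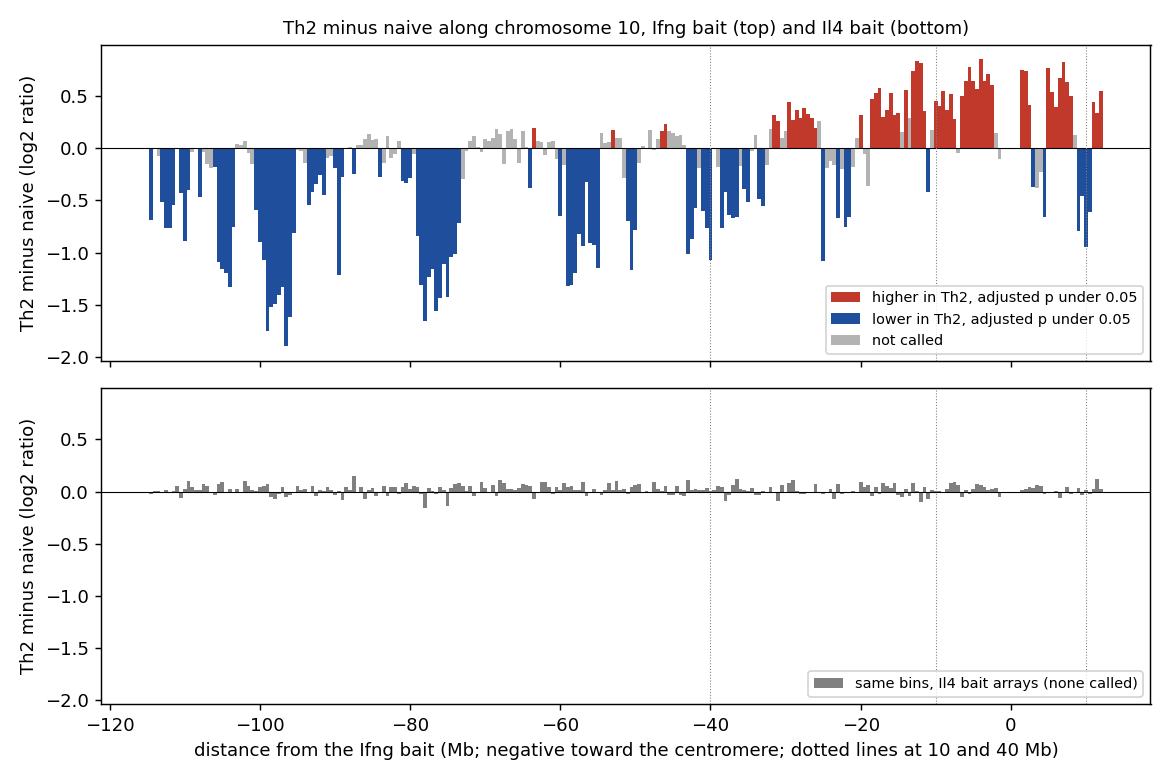
Th2 minus naive difference in log2 ratio for each 500-kb bin of chromosome 10 against the distance from the Ifng bait in Mb, for Ifng arrays (top; red called higher, blue called lower, grey not called) and for the Il4 arrays of the same cell types (bottom). With the Ifng bait 56 bins are called higher and 91 lower, and with the Il4 bait, for which chromosome 10 is a distant chromosome with levels near 0, 0 of 249 are called.

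Called bins next to each other with the same sign were joined into regions. Only bins without overlap of the Th2 and naive arrays entered, so regions lack overlap by rule. On chromosome 10 this gave 14 regions higher and 28 lower in Th2 cells. The longest region higher in Th2 cells was chr10:111000001-115500000, in bands 10qD1 and 10qD2 on the centromeric side of the bait. It had 1.08 and 1.23 in Th2 cells, against 0.52 and 0.46 in naive cells. All 9 of its bins passed, and the best had a change of 0.71 ± 0.05 (SE) with limma's adjusted p = 3.96e-08. The largest mean gain, 0.69, was in chr10:104500001-106500000 (10qD1), where Th2 cells had 0.83 and 0.76 and naive cells 0.12 and 0.10 (best bin adjusted p = 1.21e-06). Both naive arrays were low in that stretch.

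On the other side of the bait, chr10:119000001-120500000 (10qD2) had 2.26 and 2.69 in Th2 cells, against 1.92 and 1.76 in naive cells (best bin adjusted p = 0.000804). Farther toward the telomere, chr10:122500001-126000000 (10qD2 and 10qD3) had 0.84 and 1.00 in Th2 cells, against 0.30 and 0.29 in naive cells. At the telomeric end, chr10:128500001-130000000 (10qD3) had 0.86 and 0.98 in Th2 cells, against 0.47 and 0.48 in naive cells. The last 2 gains flank chr10:126500001-128500000 (10qD3), a region outside the naming rule that was chosen after its values were seen. There the Th2 arrays had 0.80 and 1.12, against 1.66 and 1.67 in naive cells (best bin change -0.94 ± 0.06, limma's adjusted p = 3.03e-09). Single called bins of loss also lay on the telomeric side, chr10:120500001-121000000 with a change of -0.38 and chr10:122000001-122500000 with one of -0.66, so gains and losses alternated there. The arrays of the groups did not overlap in the 4 regions given with their values, which the joining rule requires.

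The other 3 named gains lay toward the centromere, at chr10:107500001-110500000, chr10:99000001-103000000 (both 10qD1) and chr10:88000001-92000000 (10qC1 and 10qC2), with mean changes of 0.43, 0.43 and 0.32. The first of these had 0.75 and 0.87 in Th2 cells, against 0.39 and 0.37 in naive cells. Moving outward, the middle stretch had 0.51 and 0.61 in Th2 cells, against 0.13 and 0.13 in naive cells, and the farthest 0.53 and 0.61 in Th2 cells, against 0.27 and 0.24 in naive cells. With the median of the probes the best bins of these 3 regions and of the telomeric-end region no longer passed (adjusted p from 0.170 to 0.815), and after scaling by the spread that of chr10:119000001-120500000 did not (0.0546).

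The largest named losses were 4 blocks of the far zone. In chr10:17000001-22500000 (10qA2 and 10qA3), 95.5 to 100.5 Mb from the bait, the Th2 arrays had 0.16 and 0.22, against 1.496 and 1.504 in naive cells. The mean change of -1.31 corresponds to a 2.48-fold lower ratio, and the best bin changed by -1.52 ± 0.05 (SE; limma's adjusted p = 2.32e-13). In chr10:38500001-44500000 (10qB1 and 10qB2) they had 0.35 and 0.29, against 1.501 and 1.55 in naive cells, over 12 bins. In both blocks every naive array was above 1 and every Th2 array below 0.4.

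The other 2 blocks showed smaller changes of -0.99 and -0.95. In chr10:58500001-63000000 (10qB4) Th2 cells had 0.55 and 0.57, against 1.59 and 1.51 in naive cells. In chr10:11500001-14500000 (10qA1 and 10qA2) Th2 cells had 0.11 and 0.19, against 1.07 and 1.14 in naive cells. The best bins of all 4 blocks passed under all 16 alternatives. Nearer named losses, given by their mean change, were chr10:66500001-68000000 (-0.88), chr10:74500001-76000000 (-0.82) and chr10:76500001-78000000 (-0.81), all in bands 10qB5.1 to 10qC1. In the mid zone, chr10:95500001-96500000 (10qC2 and 10qC3) had 0.31 and 0.58 in Th2 cells, against 1.03 and 1.27 in naive cells. That mid-zone loss did not pass with the median of the probes (adjusted p = 0.710) or with the array-number series as a block (0.255), and chr10:66500001-68000000 did not after scaling (0.150).

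Genes could be placed only in cytogenetic bands, because the annotation at hand is of another build, so a gene and a changed bin of its band may lie apart. Of 401 bands tested in the same way, 35 passed (8.73%), 15 higher in Th2 cells (3.74%) and 20 lower (4.99%). Chromosome 10 held 2 of the higher and 10 of the lower bands among its 17. Without Th2 replicate 1, Th2 replicate 2 or naive replicate 2, the count of bands was 14, 12 and 12, and with the array-number series as a block it was 6, all of them lower and on chromosome 10.

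**Figure D4:**
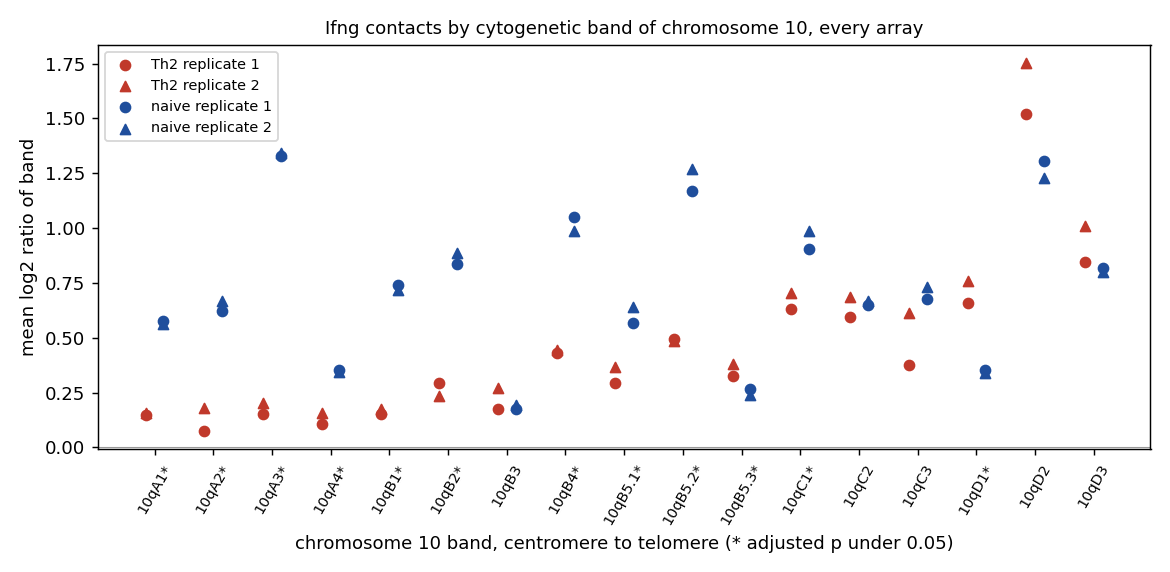
Mean log2 ratio of each of the 17 bands of chromosome 10 in both Th2 arrays (red) and both naive arrays (blue), ordered from the centromere to the telomere, with probes within 1 Mb of the bait left out and an asterisk where the adjusted p is under 0.05. The Th2 values climb toward the bait, from 0.15 and 0.16 in 10qA1 to 1.52 and 1.75 in 10qD2, while the naive values peak in 10qA3 and fall below the Th2 values in 10qD1.

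Among ligands, Ifng itself and Il22, the neighbouring gene of interleukin 22, lie in 10qD2. That band had 1.52 and 1.75 in Th2 cells, against 1.30 and 1.23 in naive cells, without overlap of the arrays. Its change of 0.37 ± 0.10 (SE) missed the threshold at limma's adjusted p = 0.0531. The band passed in 3 of 15 alternatives, among which leaving out both Th1 arrays and leaving out Th1 replicate 2 are the same fit. Limma's adjusted p ran from 0.0344 without the Th1 arrays to 0.978 with the median of the probes. Il23a, the specific subunit of interleukin 23, and Lrp1, an endocytic receptor, lie in 10qD3, which had 0.85 and 1.01 in Th2 cells, against 0.82 and 0.80 in naive cells (change 0.12, adjusted p = 0.198).

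Among receptors, Ifngr1 (the ligand-binding chain of the interferon gamma receptor), Il20ra (a receptor chain for interleukin 20 family cytokines) and Il22ra2 (a soluble decoy that binds interleukin 22) lie together in 10qA3. The band had 0.15 and 0.20 in Th2 cells, against 1.33 and 1.34 in naive cells. It changed by -1.16 ± 0.03 (SE), the largest change of any band, with limma's adjusted p = 7.89e-08. The contact of the Ifng bait with the band of its own receptor gene was thus low in both Th2 arrays, while in both naive arrays it exceeded that of the bait's own band 10qD2 outside the 1 Mb around the bait.

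Of the 8 signalling and feedback genes on chromosome 10, 3 lie in bands that fell and 0 in bands that rose. These are Tnfaip3 (the ubiquitin-editing inhibitor A20) and Map3k5 (a stress-activated kinase) in 10qA3, and Traf3ip2 (an adaptor of the interleukin 17 receptor) in 10qB1. Band 10qB1 had 0.15 and 0.18 in Th2 cells, against 0.74 and 0.72 in naive cells. The band of Stat6, which carries the interleukin 4 signal, and of Stat2, which carries that of type I interferons, is 10qD3 and did not pass. Socs2, an inhibitor of cytokine signalling, lies in 10qC2, which had 0.59 and 0.68 in Th2 cells, against 0.65 and 0.67 in naive cells (adjusted p = 0.778).

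Of the 9 T cell effector and adhesion genes, 5 lie in bands that fell and 0 in bands that rose. Prf1, the gene of the pore-forming protein perforin, lies in 10qB4, which had 0.43 and 0.45 in Th2 cells, against 1.05 and 0.99 in naive cells. Cd24a, a surface glycoprotein, shares 10qB2 with Prdm1, the gene of the repressor Blimp-1, and with Foxo3, a forkhead factor. That band had 0.29 and 0.24 in Th2 cells, against 0.84 and 0.89 in naive cells. Itgb2 (an integrin beta chain of leukocytes), Icosl (the ligand of the costimulator ICOS) and Gzmm (a granzyme) share 10qC1, which had 0.63 and 0.71 in Th2 cells, against 0.90 and 0.99 in naive cells. The last of these bands changed by -0.28 (limma's adjusted p = 0.0104) and did not pass in 6 of 15 alternatives.

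Of the 12 transcription factor genes, 10 lie in bands that fell, including Myb, a haematopoietic factor, in 10qA3, and Tcf3, an E protein of lymphocytes, in 10qC1. Of 11 placed kinase, cell cycle and stress genes, 6 lie in bands that fell, among them Fyn, a Src family kinase of T cell receptor signalling, in 10qB1, and Sgk1 in 10qA3, and 1, Cdk1, lies in a band that rose. Of 17 placed neuronal and other tissue genes, 6 lie in bands that fell and 4 in bands that rose. Of the chromosome's 17 bands 10 fell, and genes of a band share its value, so these counts describe bands and not the genes themselves.

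Only 2 bands of chromosome 10 rose. Band 10qD1 had 0.66 and 0.76 in Th2 cells, against 0.35 and 0.34 in naive cells (change 0.36 ± 0.06 SE, limma's adjusted p = 0.0151). It holds Syt1 (a synaptic vesicle calcium sensor), Kitl (stem cell factor) and Nts (neurotensin) among the genes listed. Band 10qB5.3, with Cdk1 (the mitotic kinase) and Pcdh15 (a protocadherin of the inner ear), had 0.33 and 0.38 in Th2 cells, against 0.27 and 0.24 in naive cells (change 0.10, adjusted p = 0.0382). The call of 10qD1 was kept in 9 and that of 10qB5.3 in 4 of 15 alternatives, whereas 10qA1, 10qA3, 10qB1, 10qB2 and 10qB5.2 passed in all 15.

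Bins were also grouped by the Giemsa staining of their band, dark bands being mostly gene-poor and light bands gene-rich. In the mid zone, 18 bins of the darkest class (gpos100) averaged 0.56 and 0.65 in Th2 cells, against 0.24 and 0.24 in naive cells, with 13 called higher and 1 lower. The 17 bins of intermediate classes averaged 0.67 and 0.78 in Th2 cells, against 0.70 and 0.70 in naive cells, with 9 called higher and 3 lower. The 29 bins of light bands averaged 0.58 and 0.66 in Th2 cells, against 0.79 and 0.86 in naive cells, with 5 called higher and 12 lower. All 18 of the darkest bins lay 10 to 20 Mb from the bait and all 20 bins at 30 to 40 Mb were light. Staining and distance were thus largely confounded in the mid zone. At 10 to 20 Mb the change was 0.36 in the 18 darkest bins, 0.18 in 4 intermediate and 0.13 in 2 light ones. At 20 to 30 Mb it was -0.02 in 13 intermediate and -0.09 in 7 light bins. Some of these classes hold few bins, and the parts of staining and distance were not tested.

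In the near zone the change was 0.37 in the 20 light bins, 0.38 in the 8 darkest and 0.07 in the 8 intermediate ones. In the far zone all 3 classes had lower means in Th2 cells. The 12 intermediate bins differed most, with 0.17 and 0.21 in Th2 cells, against 1.35 and 1.34 in naive cells, and 10 of them were called lower. Light bands had 0.27 and 0.30 in Th2 cells, against 0.74 and 0.75 in naive cells, and the darkest bands 0.20 and 0.24 in Th2 cells, against 0.45 and 0.44 in naive cells. Off chromosome 10 the light bands exceeded the darkest by 0.03 ± 0.01 in Th2 cells and by 0.05 ± 0.02 in naive cells (SD, n = 2 each; exact permutation p = 0.667). The arrays of the groups overlapped, with 0.038 and 0.025 in Th2 cells against 0.036 and 0.058 in naive cells.

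The other Ifng arrays place these levels. In the far zone Th1 cells had 0.20 and 0.13, Stat4 knockout Th1 cells 0.30 and 0.27, and 3T3-L1 cells 0.10 and 0.10. Both Th2 arrays, at 0.23 and 0.27, lay between the Th1 and the Stat4 knockout Th1 arrays, and both naive arrays lay above every other Ifng array. In the near zone Th1 cells had 0.60 and 0.40, Stat4 knockout Th1 cells 0.88 and 1.02, and 3T3-L1 cells 0.55 and 0.55, all below both Th2 arrays. Tested against Th1 cells, 133 of 5021 bins passed (2.65%), 121 higher in Th2 cells (2.41%) and 12 lower (0.239%). In the near zone 32 of 36 bins were higher in Th2 than in Th1 cells and 1 lower, in the mid zone 43 and 7 of 64, and in the far zone 20 and 3 of 149. Without Th1 replicate 2 these counts were 28 and 1, 29 and 5, and 6 and 3. In the 2 deepest far blocks, 10qA2 to 10qA3 and 10qB1 to 10qB2, the mean Th2 minus Th1 differences were -0.07 and 0.01, although at least 1 bin of each passed the test.

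The outline of the far profile was still shared. Over 149 far bins the naive profile correlated at r = 0.802 with that of Th1 cells and 0.836 with that of Stat4 knockout Th1 cells, and the Th2 profile at 0.617 with Th1 cells and 0.754 with Stat4 knockout Th1 cells. With 3T3-L1 cells r was 0.261 for Th2 cells and -0.05 for naive cells. The bins of a profile share a bait, an array and their distance from the bait, so these values are descriptions.

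On other chromosomes the mean over 4772 bins was 0.05 and 0.05 in Th2 cells, against 0.03 and 0.03 in naive cells. The bins of the naive arrays were spread wider, toward both high and low values. The 90th percentile of the probes there was higher in Th2 cells, at 0.49 and 0.48, against 0.4 and 0.4 in naive cells. Probes above 2, by contrast, made up 0.750% and 0.712% in Th2 cells, against 1.54% and 1.55% in naive cells. Replicates of these groups hold nearly the same sorted values as deposited, so their likeness in such shares over the array is not replicate agreement. Bins above 0.3 numbered 22 and 6 in the Th2 arrays, against 56 and 162 in the naive arrays. Bins more than 0.1 below the centring level numbered 96 and 30 in the Th2 arrays, against 224 and 739 in the naive arrays. Of the bins, 25 were called higher and 79 lower in Th2 cells, 0.524% and 1.66% of those tested off chromosome 10. Chromosome 15 had the most lower bins, 12 of 201, and chromosome 2 had 10 of 352. All 25 higher bins stood alone, and the 79 lower bins formed 52 regions, 12 of them of at least 2 bins and the longest of 7.

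These counts off chromosome 10 were less steady than those on it. Without Th2 replicate 1 they were 29 higher and 40 lower, without Th2 replicate 2 they were 15 and 26, without naive replicate 1 they were 29 and 112, and without naive replicate 2 they were 9 and 55. Quantile normalization left 4 higher and 33 lower, scaling by each array's spread 0 and 9, the median of the probes 0 and 2, and the array-number series as a block 0 and 8. The spread of the bins off chromosome 10, as a median absolute deviation, was 0.06 and 0.05 in Th2 cells and 0.06 and 0.09 in naive cells, and its part in the calls was not tested.

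**Figure D5:**
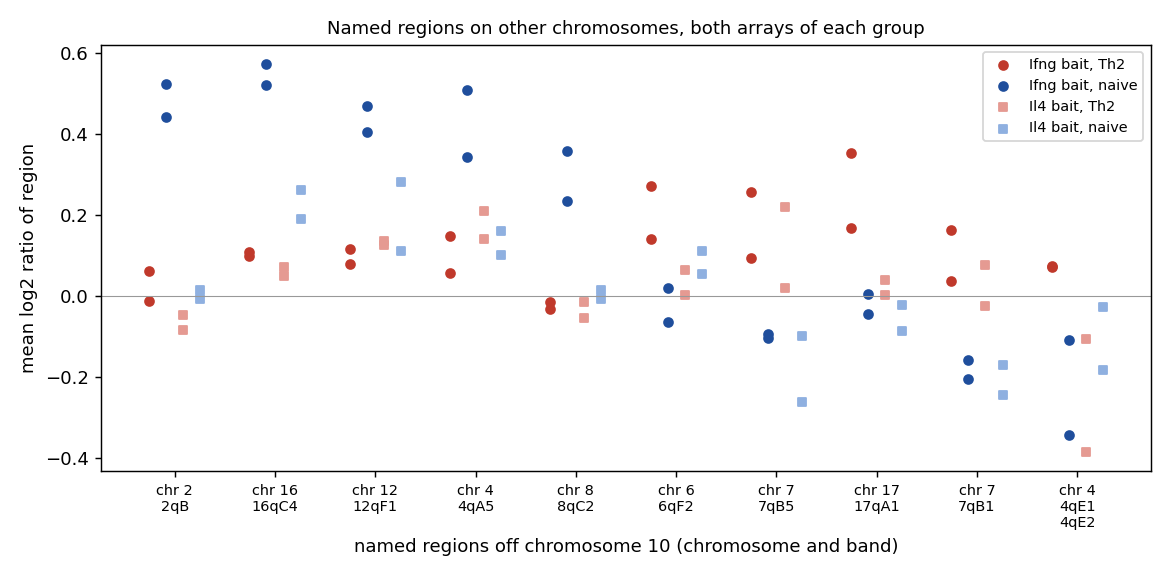
Mean log2 ratio of the 10 named regions off chromosome 10 in both arrays of Th2 and naive cells, with the Ifng bait (circles) and the Il4 bait (squares), ordered from the largest loss to the largest gain. In the 5 lower regions the naive Ifng arrays lie at 0.23 or more and the Th2 Ifng arrays at 0.15 or less.

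The clearest losses off chromosome 10 were on chromosomes 2 and 16. In chr2:43500001-44500000 (2qB) the Th2 arrays had 0.06 and -0.01, against 0.44 and 0.52 in naive cells (best bin change -0.61 ± 0.06 SE, limma's adjusted p = 1.33e-06). In chr16:92000001-93500000 (16qC4) they had 0.10 and 0.11, against 0.52 and 0.57 in naive cells (best bin change -0.52 ± 0.05 SE, adjusted p = 2.83e-07). Both passed in all 16 alternatives, and in Th2 cells both were near the level of an average bin.

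Smaller losses lay on chromosomes 12, 4 and 8. In chr12:106500001-108000000 (12qF1) Th2 cells had 0.12 and 0.08, against 0.40 and 0.47 in naive cells. In chr4:32500001-33000000 (4qA5) they had 0.15 and 0.06, against 0.34 and 0.51 in naive cells. In chr8:84000001-85500000 (8qC2) they had -0.03 and -0.01, against 0.36 and 0.23 in naive cells. These 3 did not pass with the median of the probes (adjusted p from 0.244 to 0.907).

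The 5 named gains off chromosome 10 were single bins of 21 to 66 probes with changes of 0.23 to 0.30. The largest, chr4:146000001-146500000 (4qE1 and 4qE2), rested on 25 probes and had 0.07 and 0.07 in Th2 cells, against -0.11 and -0.34 in naive cells. Others were chr7:31500001-32000000 (7qB1) and chr7:59000001-59500000 (7qB5), on 21 and 27 probes. In chr17:13000001-13500000 (17qA1) Th2 cells had 0.35 and 0.17, against -0.04 and 0.01 in naive cells. In chr6:124000001-124500000 (6qF2) they had 0.14 and 0.27, against -0.07 and 0.02 in naive cells. Each of the 5 lost its call in 4 to 8 of 16 alternatives.

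No band that holds a gene of the Th1, Th2 or naive T cell programmes was called as a whole. Named single bins did lie in such bands. The loss chr4:32500001-33000000 is in 4qA5, the band of Bach2, and the gain chr6:124000001-124500000 in 6qF2, the band of Cd4. These bands as wholes changed by 0.02 and 0.06, and a bin may lie apart from the gene of its band. Of the Th1 genes 19 of 20 could be placed, in 14 bands whose changes ran from -0.03 to 0.04. The 18 placed genes of the Th2 programme, Il4 and Gata3 among them, lie in 14 bands with changes from -0.05 to 0.05, and the 18 placed naive and pan-T genes in 17 bands with changes from -0.07 to 0.06. Over all 384 bands off chromosome 10 the changes ran from -0.21 to 0.14, with 13 higher and 10 lower. The strongest were 14qC2, with 0.11 and 0.09 in Th2 cells against 0.27 and 0.35 in naive cells, and 16qC4, with 0.12 and 0.10 in Th2 cells against 0.26 and 0.31 in naive cells. Neither 14qC2 nor 16qC4 passed with the median of the probes (adjusted p = 0.137 and 0.257) or with the array-number series as a block (0.267 and 0.118), although their changes under that block were -0.19 and -0.19, against -0.21 and -0.18 without it.

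The Il4 arrays of the same cell types were set beside the Ifng arrays. Il4 lies on chromosome 11, so chromosome 10 is a distant chromosome for that bait and its levels there were near 0 in both cell types. In chr10:17000001-22500000, for example, the Il4 arrays had 0.05 and 0.06 in Th2 cells, against 0.04 and 0.08 in naive cells. A loss of the size seen with Ifng could not appear at that level. For losses on chromosome 10 the comparison of the baits therefore mostly restates the Ifng difference. That level did not keep out a gain.

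With the Il4 bait, 163 of 5016 bins differed between Th2 and naive cells (3.25%), 1 higher in Th2 cells (0.0199%) and 162 lower (3.23%). On chromosome 10, 0 of 249 bins passed limma's adjusted p, with 2 of them at an unadjusted p under 0.05. Tested as an interaction over 18 arrays, the Th2 minus naive difference depended on the bait in 237 of 5016 bins (4.72%), with the Ifng difference higher than the Il4 difference in 150 (2.99%) and lower in 87 (1.73%). Chromosome 10 held 112 of these, 34 higher and 78 lower, and chromosome 11, where Il4 lies, 113. With the array-number series as a block over both baits, 179 bins passed, 86 of them on chromosome 10.

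On chromosomes other than 10 and 11, distant from both baits, 12 bins passed. The test covered 4767 bins off chromosome 10, of which 233 were on chromosome 11. In simulated data 5.32% of all calls of this test were false, so these 12 may include false calls. The region chr16:92000001-93500000 had a change of -0.17 with the Il4 bait, with 0.07 and 0.05 in Th2 cells against 0.19 and 0.26 in naive cells, and 1 of its 3 bins passed the test of the bait difference (adjusted p = 0.000131). The region chr2:43500001-44500000 had -0.05 and -0.08 in Th2 cells with the Il4 bait, against 0.01 and -0.01 in naive cells, and 1 of its 2 bins passed (adjusted p = 0.0016).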

How the data were processed

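HindIII cut the chromatin, per the labels' protocols, and after ligation the DNA was cut with Csp6I and amplified by inverse PCR from the bait; the 4C DNA carried Cy5 and digested genomic DNA of the same cells Cy3. The deposited values are log2 ratios per probe, 1 file per array; the log base, scanner processing and genome build are not given in the sources used here. The base was taken as 2. The build was taken as mm8, because 0 of 21 chromosomes had a probe past its end, against 11 with mm7, 5 with mm9 and 8 with mm10. Sorted values of both replicates agreed within 0.011 for 99.9% of probes in Th2 cells and 100.0% in naive cells; what the authors did to give this is not stated.

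The median of the probes off chromosome 10 was subtracted from each array. Probe values were averaged over 500-kb bins that held 20 probes or more, and bins up to 1 Mb from the bait bin were left out. Bins and bands were compared with limma 3.58.1 (lmFit, contrasts, eBayes) in R 4.3.3, two-sided, with all 5 Ifng groups in the fit and Benjamini-Hochberg adjustment over all bins or bands at 0.05; the bait difference used all 9 groups, centred off chromosomes 10 and 11. Bands came from circlize 0.4.16, and genes were placed from a RefSeq table of GRCm38 at least 300 kb inside a band. Zone means were compared by an exact permutation test over arrays. Values were prepared with pandas 2.3.3 and numpy 2.4.6 in Python 3.11.15 and plotted with matplotlib 3.10.9.

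Named on chromosome 10 were the 8 regions of at least 2 bins of largest mean change, higher and lower, and off it the 5 of any length, each without overlap of the arrays; genes were named with their band, from lists of pathway and cell type genes. The arrays, lists and rules were chosen with earlier results of these data known. On simulated data with 200 of 5021 bins changed, 93% of changes of 0.4 and 50% of 0.2 were recovered and 5.92% of calls were false. For 200 of 401 bands these were 100%, 98% and 2.94%, and for the bait difference (200 of 5016 bins) 70%, 19% and 5.32%. The simulated bins and bands were drawn independently and without an effect of the array-number series. In the data 35 of 401 bands were called, fewer than were changed in the simulation. The simulated shares need not hold for the calls in the data. Replicate numbers were not shown to pair arrays: the differences between replicates of both groups correlated at r = -0.130 over all bins. The number of arrays limits the precision. Alternatives were other bin sizes and probe minimums, the median or the highest 5% of probes, quantile normalization, scaling by spread, other centring, no extreme probes, the distance trend taken out, eBayes with trend and robust settings, blocks, fewer groups and each replicate left out.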

Additional observations from a re-analysis of the deposited data

Results flagged for a closer look

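In 112 bins of chromosome 10 the Th2 minus naive difference differed between the Ifng and the Il4 bait by the interaction test. The Ifng change was lower than the Il4 change in 78 of them and higher in 34. Chromosome 10 is near 0 with the Il4 bait, so for losses there the test mostly restates the Ifng difference. In 12 bins off chromosomes 10 and 11 it also differed, with the Ifng change lower than the Il4 change in 9 and higher in 3, and with 6 to 23 such bins when 1 array was left out. The test covered 4767 bins off chromosome 10, of which 233 were on chromosome 11, so the 12 bins are a small share. Among these 12, the bin chr8:84500001-85000000 had -0.05 and -0.08 in Th2 cells with the Ifng bait, against 0.50 and 0.34 in naive cells. Its Il4 change was 0.02. The bin chr6:98500001-99000000 had 0.02 and -0.00 in Th2 cells with the Ifng bait, against 0.26 and 0.40 in naive cells, and its Il4 change was 0.05. Both were chosen after their values were seen.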

How the results depend on the processing

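No named region reversed its direction under the alternatives run. The 251 called bins became 380 with 200-kb bins, 83 with chromosome 10 left out, 75 with the median of the probes, 153 after quantile normalization, 89 after scaling by the spread off chromosome 10, 96 with the array-number series as a block, and 170 to 279 with 1 of the 4 arrays left out. Taking out the distance trend put the share of higher bins among those called at 46.4%, against 32.3% as reported. The share was 10.7% with the median, 20.2% with the share of the highest 5% of probes and 42.3% with eBayes trend and robust settings. With chromosome 10 left out it was 20.5%, but that setting drops the calls of chromosome 10 by construction. Its 83 called bins, 17 higher and 66 lower, compare with 25 higher and 79 lower on other chromosomes as reported. The 35 bands became 7 with the median, 12 after quantile normalization, 12 after scaling, 6 with the array-number series as a block, 17 with naive and Th2 arrays alone, and 12 to 36 with 1 array left out. The bait difference was called in 148 bins after scaling, 73 of them on chromosome 10, and in 191 to 240, with 97 to 108 on chromosome 10, with 1 array left out.

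The near, mid and other-chromosome differences were -0.0438, -0.15 and 0.00314 with the median. After quantile normalization the far and other-chromosome differences were -0.32 and 0.0104. Scaling gave 0.54 near, 0.17 mid, -0.22 far and 0.0271 on other chromosomes. Taking out the distance trend, which removes the mean difference by construction, left -0.0108 near and -0.0333 far. Zones ending at 15 and 50 Mb, chosen after seeing the data, gave -0.10 mid and -0.44 far. With 1 array left out the near difference ran from 0.21 to 0.41, the mid from -0.03 to 0.06, the far from -0.42 to -0.38 and the other chromosomes from 0.020 to 0.024. The remaining array of a group was then assumed to vary like the other groups. The causes were not tested.

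With the replicate number as a block, 238 bins, 27 bands and 237 bins of the bait difference passed, and with the naive numbers crossed, added because the replicate differences correlated at -0.130, 226 bins and 24 bands. The block ended no call of a named region. Leaving out both Th1 arrays left 232 bins and 27 bands. Leaving out Th1 replicate 2 alone, also added after seeing the data, is the same fit for Th2 against naive cells. The 15 alternatives of the bands hold that fit under both names. With 2 arrays a group, changes near 0.2 were often missed in simulated data.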

Other observations

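A few single bins of chromosome 10 stood apart from their neighbours; both given here were chosen after their values were seen. The bin chr10:28000001-28500000 in 10qA4 had 0.13 and 0.06 in Th2 cells, against 1.46 and 1.18 in naive cells, a change of -1.22 ± 0.07 (SE) with limma's adjusted p = 4.04e-10. The bins on either side of it, chr10:27500001-28000000 and chr10:28500001-29000000, changed by -0.19 and -0.28. Both were also called lower, so the bin differed from them in size and not in direction.

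In the mid zone, chr10:106500001-107000000 had 0.54 and 0.48 in Th2 cells, against 0.92 and 0.94 in naive cells, with limma's adjusted p = 0.0161. The bin before it, chr10:106000001-106500000, was higher in Th2 cells, with 0.35 and 0.36 against -0.05 and 0.05 in naive cells, and the bin after it did not pass. In 3T3-L1 cells chr10:106500001-107000000 had 2.12 and 2.33.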
